A study of Mus musculus with 3 samples.

Results

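The LIM, NK, Iroquois, Distal-less and Sine oculis homeobox genes (Lhx, Nkx, Irx and Dlx genes, and Six2, Six3, Six4 and Six6) and the paired-box genes (Pax) outside the Hox clusters were examined for DNA methylation at CCGG sites in differentiating embryonic stem cells (ESCs) of the mouse. The 38 genes were taken by name from GENCODE release M21 (8 Lhx, 7 Nkx, 6 Irx, 6 Dlx, 4 sine oculis genes and 7 Pax genes), out of 21938 protein-coding genes measured in the same way. MethylRAD sequencing was used, in which the enzyme FspEI cuts next to a methylated cytosine and releases a short fragment, so that the number of reads at a CCGG site increases with its methylation and an unmethylated site gives no fragment. Undifferentiated ESCs were compared with untreated cells at day 7 of differentiation and with cells at day 7 of differentiation treated with 3 mM pargyline, an inhibitor of the histone demethylase LSD1. The labels name only the state and the treatment, the day and the dose come from the study's methods, and the deposited tables of both differentiated samples carry the unexplained tag RA4. All 3 groups were the established mouse ESC line E14Tg2A, and both day 7 groups had been withdrawn from leukemia inhibitory factor and given retinoic acid, whereas the undifferentiated cells were kept in the factor. There was 1 library per group, no test across groups was made, and no interval below covers the spread between cultures. The intervals of read sums cover counting error only and can be too narrow, because copies made by PCR were not separated. Those of listing shares treat each motif as an independent draw and can also be too narrow, because nearby motifs can share fragments.

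These genes encode transcription factors that set up the body plan and the organs. Most of their start sites lie in long CpG-rich stretches, which in ESCs are kept free of DNA methylation and are bound by Polycomb complexes that hold the genes silent until a lineage needs them. Homeodomain proteins bind DNA through the homeodomain, LIM proteins carry LIM domains in addition, and Pax proteins carry the paired domain, in some members together with a homeodomain. No RNA was measured here, and in a bulk library fewer methylated cells and fewer methylated alleles per cell cannot be told apart.

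CCGG reads numbered 31614077 for undifferentiated ESCs, 36654573 for untreated and 25766968 for treated cells, and a site entered a table from 5 reads. Reads were scaled to 1000000 CCGG reads of their table ("scaled reads"), and a site not listed was set to 4 reads in every ratio, so that the ratios understate differences at unlisted sites and a ratio to a region with no listed site is a lower bound. CCGG reads made up 62.0%, 49.7% and 38.3% of the mapped reads in the undifferentiated, untreated and treated libraries, so a scaling to all mapped reads lowers the treated library against the others. Values are given in the order undifferentiated, untreated, treated throughout, and "called higher" or "called lower" means a ratio of at least 2-fold. Regions were the start-site window (within 1 kb of a start of the gene), the body (the rest of the gene) and the flank (5 kb on each side, outside the other regions). The genes ranged in length from 3019 bp (Nkx3-2) to 185731 bp (Pax5), and the start-site windows had a GC content between 47.5% (Pax5) and 67.4% (Six2).

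CCGG sites of the start-site windows are shown with their surroundings, since the whole measurement rests on such 4-base sites. The first of each family had the largest mean day 7 gain in scaled reads. The second had the most scaled reads in undifferentiated ESCs. Only sites on CCGG motifs of GRCm38 were eligible. Both kinds were chosen for their values, which are a description. The capitals mark the CCGG site, and each run of 30 bases of GRCm38 is written 5′ to 3′ on the strand of the gene.
Lhx4: gactcgcgcgttcCCGGccgagtacgagct
Lhx6: gctggtgcaagctCCGGttgtcatgaagca
Nkx2-2: ccctggtcagggtCCGGctagcagtagagg
Nkx6-2: ggtagtaaggtcaCCGGttgcctggagcca
Irx6: gtgggatcctggaCCGGtctactctgaccg
Irx4: ggcatcccaagctCCGGcctagcctcagac
Dlx4: aagtctgtgtttgCCGGtccataaatgagc
Dlx1: ccccatcccaaccCCGGcgcacaaccgcag
Six6 (+207): ccccagcaagtagCCGGggtatgtgagacc
Six6 (+712): gcagacaaagagaCCGGgcagctgcagcca
Pax7: tcccagcccaaggCCGGctttcctacacag
Pax1: cgctacaacgagaCCGGctccatcctgccc
The Lhx4 run (chr1:155742820-155742849, minus strand) lay within the gene but outside its basic transcripts, 806 bp upstream of the start, with 8, 41 and 31 reads. The Lhx6 run (chr2:36105987-36106016, minus strand) lay upstream of the gene, 592 bp upstream of the start, with 86, 78 and 54 reads. The Nkx2-2 run (chr2:147185385-147185414, minus strand) lay in an intron, 703 bp downstream of the start, with 17, 14 and 64 reads. The Lhx4 site was gained in both day 7 libraries and the Nkx2-2 site in the treated library alone. The Nkx6-2 run (chr7:139583398-139583427, minus strand) lay upstream of the gene, 621 bp upstream of the start, with 65, 10 and 17 reads. The Irx6 run (chr8:92675643-92675672, plus strand) lay in an intron, 830 bp downstream of the start, with 53, 100 and 43 reads. The Irx4 run (chr13:73261385-73261414, plus strand) lay in an intron, 901 bp downstream of the start, with 75, 65 and 49 reads. The Irx6 site stood out in untreated cells, whereas the Irx4 site was level. The Dlx4 run (chr11:95146654-95146683, minus strand) lay upstream of the gene, 404 bp upstream of the start, with 46, 72 and 75 reads. The Dlx1 run (chr2:71527496-71527525, plus strand) lay upstream of the gene, 604 bp upstream of the start, with 47, 50 and 68 reads. The Six6 (+207) run (chr12:72940086-72940115, plus strand) lay in a coding exon, 207 bp downstream of the start, with 0, 13 and 12 reads. The Dlx sites were listed in every library, and the first Six6 site was listed at day 7 but had under 5 reads in undifferentiated cells. The Six6 (+712) run (chr12:72940591-72940620, plus strand) lay in a coding exon, 712 bp downstream of the start, with 34, 27 and 28 reads. The Pax7 run (chr4:139833948-139833977, minus strand) lay upstream of the gene, 433 bp upstream of the start, with 0, 0 and 31 reads. The Pax1 run (chr2:147365903-147365932, plus strand) lay in a coding exon, 922 bp downstream of the start, with 15, 16 and 9 reads.
The Lhx6, Irx4, Dlx1 and Pax1 sites and the Six6 exon site at +712 had similar reads in the 3 libraries or differed by less than 2-fold, whereas the Nkx6-2 site lost most of its reads at day 7 in both libraries. Of the 2633 CCGG motifs in the regions of the 38 genes, 679 (25.8%) lay within 32 bp of another and can share fragments.

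More CCGG motifs of these genes were listed in the treated library than in either other library, in start-site windows, bodies and flanks alike. Of the 617 motifs in start-site windows, 70 were listed in undifferentiated ESCs (11.3%, interval 9.08% to 14.1%), 111 in untreated cells (18%, interval 15.2% to 21.2%) and 253 in treated cells (41%, interval 37.2% to 44.9%, Wilson 95% intervals). Over all protein-coding genes, the shares were 16.7%, 22.4% and 26.4%, and over start-site windows with at least 10 motifs they were 10.9%, 16.8% and 21%. In undifferentiated cells the 38 genes thus stood below all genes but level with windows of at least 10 motifs, and in treated cells above both.

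In the bodies, 50.0%, 56.1% and 71.9% of 1435 motifs were listed, against 67.2%, 67.5% and 67.4% over all protein-coding genes. In the flanks, 52.3%, 55.2% and 73.5% of 581 motifs were listed, against 60.4%, 60.3% and 61.6% over all genes. The shares over all genes were thus nearly level across the libraries in bodies and flanks, where those of the 38 genes were highest in treated cells. The treated table had the fewest CCGG reads, so its cutoff of 5 reads stood at the highest level scaled to CCGG reads. Per mapped read the cutoff stood highest in the undifferentiated library. That library had 50959915 mapped reads, against 73712873 in the untreated and 67235265 in the treated one. With cutoffs of 7, 8 and 5 reads, which are nearly the same scaled level in each library, the shares in start-site windows were 8.43%, 11.5% and 41.0%.

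**Figure D1:**
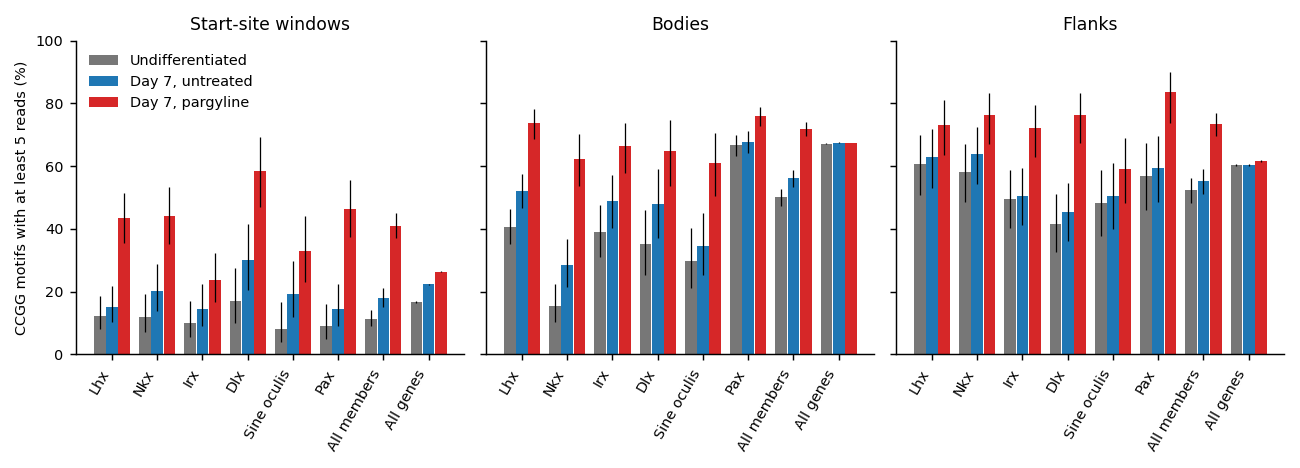
Share of CCGG motifs with at least 5 reads (y axis, %) in start-site windows, bodies and flanks, for each family, for the 38 genes together and for all protein-coding genes, with bars for the 3 libraries and Wilson 95% intervals. The treated bar was the highest in every family and region, from 23.6% (Irx start-site windows) to 83.5% (Pax flanks), whereas the bars of all genes stood level in bodies and flanks.

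Every family had its highest listing share in treated cells in each region, by unequal amounts. In start-site windows the Dlx genes, which pattern the forebrain and the branchial arches, had 17.1%, 30.0% and 58.6%, the Pax genes 9.09%, 14.5% and 46.4%, the Nkx genes 11.9%, 20.2% and 44% and the Lhx genes 12.4%, 15.2% and 43.4%. The sine oculis genes had 8.22%, 19.2% and 32.9% and the Irx genes 10.0%, 14.5% and 23.6%, the smallest difference between undifferentiated and treated cells. In the bodies the Nkx genes showed the widest step, with 15.4%, 28.5% and 62.3%, and the Pax genes the smallest, with 66.7%, 67.8% and 76%.

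The families differed in the CpG content of their motifs, in windows of 500 bp classed as high, intermediate or low by the study's own limits. Low-CpG windows held 67.2% of the Pax motifs but 22.4% of the Nkx, 29.5% of the Irx, 31.2% of the Dlx, 35% of the sine oculis and 40.8% of the Lhx motifs. Among intermediate-CpG motifs alone the listed shares of Pax were 29%, 36% and 69.5%, and those of Nkx were 25%, 34% and 66.7%. Within this class the families lay close together in undifferentiated cells and, apart from sine oculis (21.9%, 30.5% and 52.4%), in treated cells.

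Over all regions of the 38 genes, high-CpG motifs were listed at 4.55%, 12.9% and 30.5%, intermediate-CpG motifs at 25.7%, 35.7% and 65.8% and low-CpG motifs at 70.4%, 71% and 79.3%. Over all protein-coding genes the shares were 3.03%, 9.05% and 11.2% for high, 27.7%, 33.2% and 38.3% for intermediate and 69%, 69% and 68.8% for low CpG content. In undifferentiated cells the 38 genes and all genes had similar shares in each class, and in treated cells they stood apart in every class. The gap in percentage points was widest in the intermediate class, and the ratio of the shares was largest in the high class. The treated listing in start-site windows was not confined to 1 kind of sequence, with 47.1% of upstream, 23.3% of untranslated, 49.1% of coding and 56.2% of intronic motifs listed.

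Around the start sites, the motifs from 500 bp upstream up to the start were listed at 4.14%, 10.3% and 35.9% and those in the first 500 bp downstream at 8.37%, 15.9% and 32.2%. All protein-coding genes had 12.3%, 17.6% and 21.5% and 10.4%, 17% and 20.3% in these steps. At 4.5 to 5 kb upstream, the 38 genes had 47.2%, 50.0% and 88.9% of 36 motifs and all genes 58.7%, 60.3% and 60.9%. The dip at the start sites was present in all 3 libraries, and the treated curve lay above the other two in each 500 bp step out to 5 kb on both sides.

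**Figure D2:**
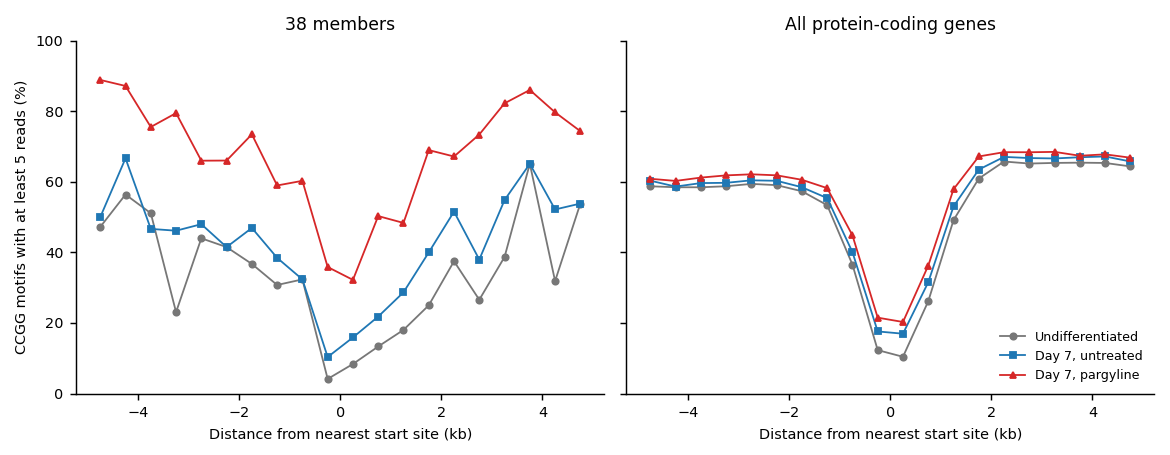
Share of CCGG motifs with at least 5 reads (y axis, %) in 500 bp steps by distance from the nearest start site (x axis, kb, in the direction of transcription), for the 38 genes (left) and all protein-coding genes (right), with a line per library. For the 38 genes the treated line is above both others in every step, and for all genes the 3 lines nearly coincide outside the start sites.

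By gene, 35 of the 38 start-site windows had at least 20 reads in at least 1 table and were compared, 11 of them only through the treated table (Lhx5, Lhx8, Nkx2-1, Irx2, Irx5, Dlx2, Dlx5, Six2, Pax2, Pax3 and Pax7), so that these 11 entered because they were high there. Nkx6-1, Dlx6 and Six4 fell short, with 0 to 19 reads in any table. Between untreated and undifferentiated cells, 2 of 33 windows were called higher (Lhx4 and Pax5; 11.5% of all windows compared) and 1 lower (Irx2; 7.35% of all). With at least 10 motifs it was 1 of 28 higher (12.5% of all such windows) and 1 lower (4.61%). With reads scaled to all mapped reads it was 1 of 33 higher (5.59% of all) and 3 lower (13.1%). In these settings the share of these genes called was not above that of genes at large, whereas with unlisted sites set to 0 reads 10 of 33 were called higher (23.2% of all) and 4 lower (8.38%).

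Between treated and undifferentiated cells, 22 of 35 windows were called higher (26.1% of all windows compared) and 0 lower (5.87%). Among windows with at least 10 motifs it was 18 of 29 higher (33.1% of all such windows) and 0 lower (2.52%). Between treated and untreated cells, 21 of 35 were called higher (15.4% of all) and 0 lower (1.94%), and among windows with at least 10 motifs 16 of 29 (19.2%) and 0 (1.04%). The 2 comparisons share the treated library. The median log2 ratio of the windows compared was 1.17 against 0.42 over all genes for treated over undifferentiated, and 1.23 against 0.29 for treated over untreated.

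Without the 11 windows that entered only through the treated table, and likewise for all genes, 13 of 24 windows were called higher over undifferentiated cells (20.7% of all) and 11 of 24 over untreated cells (9.06%), a filter chosen after seeing the data. The counts depended on the cutoff and the scaling, while the share of these genes called stayed above that of all genes in each setting named here. At nearly the same scaled cutoff in each library, 12 of 35 windows were called higher between treated and undifferentiated cells (17.2% of all), and at a cutoff of 10 reads 8 of 33 (16.9% of all). Scaled to all mapped reads, 5 of 35 were (7.15% of all; Lhx9, Nkx2-2, Pax5, Pax7 and Pax9, so that no Irx, Dlx or sine oculis window stayed called), with the median over all genes at -0.27 and that of these genes at 0.47 on the log2 scale.

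In the bodies, all 38 genes had at least 20 reads in at least 1 table, Nkx2-3 and Six2 only in the treated one. Between untreated and undifferentiated cells, 0 of 37 bodies were called higher (1.85% of all bodies) and 0 lower (2.72%). Between treated and undifferentiated cells, 20 of 38 were called higher (3.66% of all) and 0 lower (2.64%), and between treated and untreated cells 14 of 38 (2.05%) and 0 (0.651%). The median log2 ratio of the 38 bodies was 1.10 for treated over undifferentiated and 0.78 for treated over untreated, against -0.03 and -0.01 over all genes. Scaled to all mapped reads, 6 of 38 bodies were called higher between treated and undifferentiated cells (1.05% of all; Lhx5, Nkx2-3, Nkx6-1, Dlx2, Dlx5 and Six2) and 0 lower, with medians of 0.40 and -0.72.

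In the flanks, 0 of 38 were called higher (3.53% of all flanks) and 0 lower (5.44%) between untreated and undifferentiated cells. Between treated and undifferentiated cells, 7 were called higher (6.3% of all) and 0 lower (5.24%), and between treated and untreated cells 10 (3.07%) and 0 (1.02%). The Dlx5 and Dlx6 flanks had at least 20 reads only in the treated table, and without such flanks 5 of 36 (5.75% of all) and 8 of 36 (2.43%) were called higher. Scaled to all mapped reads, the flanks gave 2 higher (1.63% of all) and 3 lower (27.7%) for treated over undifferentiated cells. For treated over untreated cells they gave 3 higher (1.19%) and 1 lower (4.28%). In that scaling the median of the 38 flanks over undifferentiated cells turned from 0.34 to -0.36, with that of all genes at -0.70. Counting genes with at least 1 region called higher in treated over undifferentiated cells gave 33 of 38 (22.9% of all genes with a region compared), and the 5 without were Lhx6, Irx4, Irx6, Six4 and Pax1. Scaled to all mapped reads, only Lhx5, Lhx9, Nkx2-2, Nkx2-3, Nkx6-1, Dlx2, Dlx5, Dlx6, Six2, Pax5, Pax7, Pax8 and Pax9 had such a region.

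**Figure D3:**
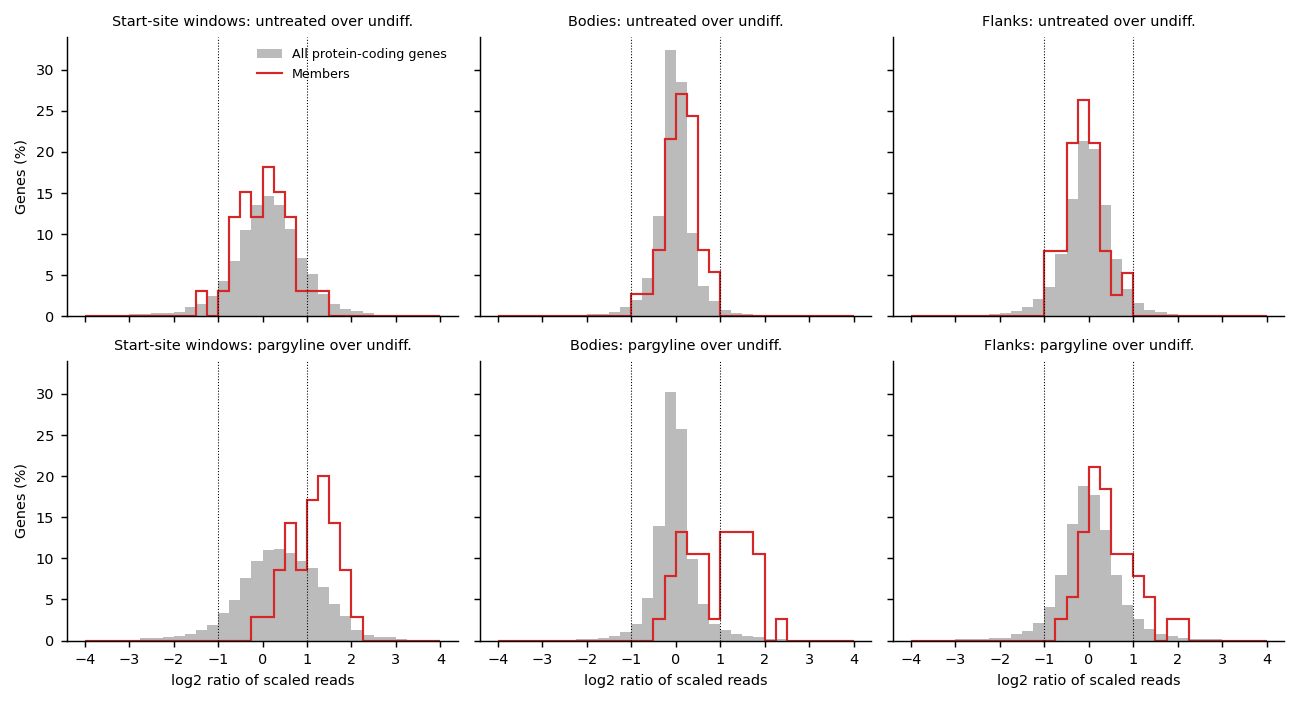
Distribution of log2 ratios of scaled reads (x axis, limited to 4 on either side) as a share of genes (y axis, %), for all protein-coding genes compared (grey) and the 38 genes compared (red), in start-site windows, bodies and flanks; upper row untreated over undifferentiated, lower row pargyline-treated over undifferentiated, dotted lines at 2-fold. The red outlines lie on the grey in the upper row and to its right in the lower row, most in the bodies, where the medians are 1.10 and -0.03.

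Sites listed in all 3 tables allow the comparison without any value set for unlisted sites. At the 929 such sites of the 38 genes, the median log2 ratio was 0.42 for treated over undifferentiated, 0.34 for treated over untreated and 0.01 for untreated over undifferentiated. Over all protein-coding genes (441028 sites) the medians were 0.07, 0.01 and 0.07. These medians still depend on the scaling to CCGG reads, which made up 62.0%, 49.7% and 38.3% of the mapped reads. Scaling to all mapped reads would turn each of these medians negative, those of all genes and those of the 38 genes alike. Of the 929 sites, 64.2% had more reads scaled to CCGG reads in treated than in undifferentiated cells, against 52.6% over all genes. A further 482 sites of these genes were listed in the treated table only, with a median of 8 and at most 38 reads, and 181 of them (37.6%) had at least 10 reads. Over all protein-coding genes 38200 sites were, with a median of 7 reads and 28.1% with at least 10. Such sites were 150 of the 282 listed in any table in start-site windows (13371 of 57905 over all genes). In bodies they were 231 of 1124 (21202 of 497968) and in flanks 101 of 469 (3627 of 62179).

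**Figure D4:**
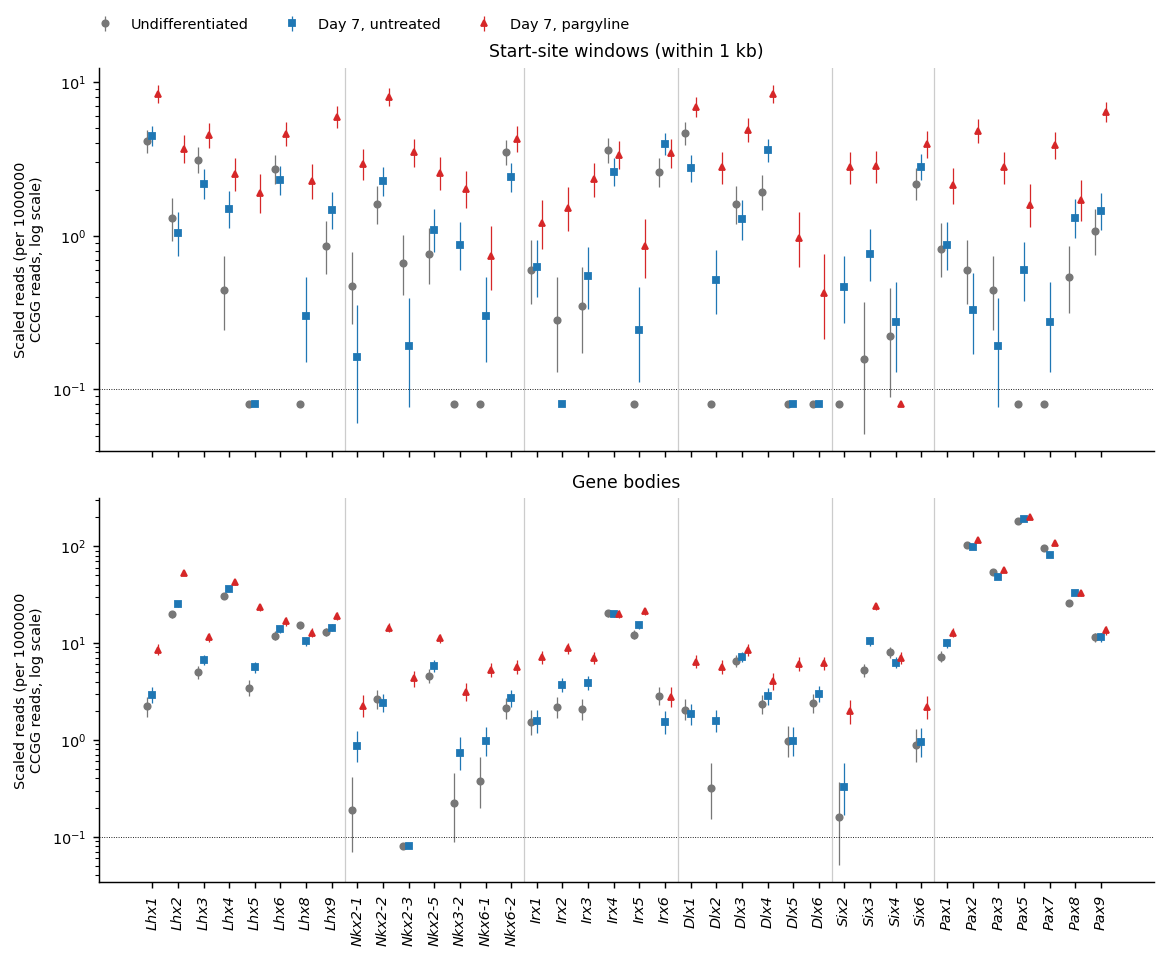
Scaled reads (y axis, reads per 1000000 CCGG reads, log scale) of each of the 38 genes in its start-site window (upper) and body (lower), by family, with exact Poisson 95% intervals for counting error; symbols below the dotted line mark regions with no listed site. In the start-site windows 11 genes have no listed site in undifferentiated cells, 4 in untreated cells and 1 (Six4) in treated cells.

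The Lhx genes encode LIM homeodomain factors of the nervous system, the pituitary and the gonads. In the start-site windows, 5 of 8 (26.1% of all windows) were called higher in treated over undifferentiated cells. Of these, Lhx5 and Lhx8 were compared only through their reads in the treated table. Scaled to all mapped reads, only the Lhx9 window stayed called. Lhx9, which is required for gonad formation, had 0.854, 1.47 and 5.94 scaled reads, a log2 ratio of 1.77. Lhx5, a factor of the forebrain and hippocampus, had no listed site in undifferentiated or untreated cells and 49 reads at 5 sites in treated cells, which is at least 3.01-fold higher than in undifferentiated and at least 3.49-fold higher than in untreated cells. Both windows were thus highest in treated cells, from unlike starting levels.

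Lhx8, a factor of forebrain cholinergic neurons and of oocytes, had 0, 11 and 59 reads and a ratio of at least 2.59-fold to undifferentiated cells. With the starts of all annotated transcripts the Lhx8 ratio turned to -0.21 on the log2 scale. Lhx2, a regulator of forebrain and eye, had 1.3, 1.04 and 3.69 scaled reads, a ratio of 2.2-fold in treated over undifferentiated cells. Lhx4, which acts with Lhx3 in the pituitary, had 0.443, 1.5 and 2.52 scaled reads and was the only Lhx gene called higher in untreated cells, with log2 ratios of 1.40 for untreated and 1.41 for treated over undifferentiated cells.

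Lhx1, needed for head and kidney formation, had 4.11, 4.47 and 8.38, Lhx3 had 3.13, 2.18 and 4.5 and Lhx6, a factor of cortical interneurons, had 2.72, 2.32 and 4.62 scaled reads in the start-site window. These 3 windows carried the most reads of the family in undifferentiated cells and were not called. In Lhx6 a single site gave all 86 reads in undifferentiated cells, and 10 motifs were listed in treated cells.

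In the Lhx bodies, 4 of 8 (3.66% of all bodies) were called higher in treated over undifferentiated cells. Lhx5 had 3.45, 5.62 and 23.4 scaled reads over 52 motifs, of which 12, 20 and 41 were listed, and a log2 ratio of 1.72. Lhx1 had 2.21, 2.92 and 8.54 scaled reads with a log2 ratio of 1.35, and Lhx2 had 19.8, 25 and 52.6 with 1.13. The treated value was highest in each, with the untreated value in between. Lhx3 had 5.0, 6.68 and 11.4 and a log2 ratio of 1.09, whereas Lhx8 had 15.2, 10.4 and 12.8 and was the only Lhx body below its undifferentiated level in both day 7 libraries (-0.56 and -0.27). Scaled to all mapped reads, the Lhx4, Lhx6 and Lhx9 bodies also lay below that level in both. In the flanks, only Lhx5 was called (6.3% of all flanks), with 4.24, 5.97 and 13.4 scaled reads, and was thereby called higher in all 3 regions. Scaled to all mapped reads, Lhx5 was called higher over undifferentiated cells in the body only, with log2 ratios of 0.89 in the window and 0.65 in the flank.

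The Nkx genes encode NK homeodomain factors of the ventral neural tube and of endodermal and mesodermal organs. Of the 6 windows compared, 4 (26.1% of all windows) were called higher in treated over undifferentiated cells. Of these, Nkx2-1 was compared only through its reads in the treated table. Scaled to all mapped reads, only the Nkx2-2 window stayed called. Nkx2-2, which patterns the ventral spinal cord and the pancreatic islets, had 1.61, 2.26 and 8.03 scaled reads, a log2 ratio of 1.84. The heart factor Nkx2-5 had 0.759, 1.09 and 2.56 scaled reads over only 3 motifs, 2 of which were listed in undifferentiated cells and all 3 in both day 7 libraries. Both windows were highest in treated cells and carried reads in every library.

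Nkx2-1, required for thyroid, lung and ventral forebrain, had 15, 6 and 76 reads, and Nkx2-3, a factor of the spleen and gut, had 21, 7 and 90. For these windows the log2 ratios to undifferentiated cells were -0.65 and -0.95 in untreated cells and 1.13 and 1.30 in treated cells, so that the day 7 libraries stood on opposite sides of the undifferentiated one. Nkx3-2, which acts in the axial skeleton, had 0, 32 and 52 reads at 0, 5 and 9 motifs and was not called, with a log2 ratio of 0.83 that is a lower bound. Nkx6-2, a factor of oligodendrocytes, had 3.51, 2.4 and 4.27 scaled reads and did not separate treated from undifferentiated cells (0.04), although 3 motifs were listed in undifferentiated and 8 in treated cells.

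The Nkx bodies gave 6 of 7 (3.66% of all bodies) called higher in treated over undifferentiated cells. Nkx2-3 had no listed body site in undifferentiated or untreated cells and 111 reads at 10 of 16 motifs in treated cells, which is at least 3.4-fold and 3.95-fold higher. Nkx6-1, which acts in beta cells and motor neurons, had 12, 36 and 136 reads at 1, 4 and 9 of 24 motifs, a log2 ratio of 1.92. Nkx2-2 had 2.63, 2.4 and 14.4 scaled reads (1.63). In these 3 genes the untreated value lay closer to the undifferentiated than to the treated one.

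Nkx3-2 had 7, 27 and 81, Nkx2-1 6, 32 and 58 and Nkx6-2 67, 99 and 147 reads in the body, all called higher in treated over undifferentiated cells. The Nkx2-1 body, with a single listed site in undifferentiated cells, was not called in untreated cells, with a log2 ratio of 0.98 that understates the difference, as sites unlisted in undifferentiated cells were set to 4 reads. The 1 body not called was that of Nkx2-5, with 4.59, 5.81 and 11.1 scaled reads and a log2 ratio of 0.87, although 8, 14 and 20 of its 23 motifs were listed. In the flanks, 0 of 7 (6.3% of all flanks) were called higher over undifferentiated cells, and Nkx3-2 (3.29, 3.06 and 6.6) and Nkx6-1 (5.22, 3.14 and 9.9) were called higher over untreated cells.

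The Irx genes encode TALE-class homeodomain factors and lie in a cluster of Irx1, Irx2 and Irx4 on chromosome 13 and a cluster of Irx3, Irx5 and Irx6 on chromosome 8. In the start-site windows 2 of 6 (26.1% of all windows) were called higher in treated over undifferentiated cells. Of these, Irx5 was compared only through its reads in the treated table, as was the uncalled Irx2. Scaled to all mapped reads, no Irx window stayed called. Irx3 had 11, 20 and 60 reads, a log2 ratio of 1.68, and Irx5 had 0, 9 and 22 reads, a ratio of at least 2.25-fold. Irx2 had 9 reads at 1 site in undifferentiated cells, no listed site in untreated cells and 39 reads at 5 sites in treated cells. Its window was the only one of the 38 genes called lower in untreated cells (-1.38), and that ratio turned to 0.17 with windows of 3 kb and to 0.35 with all annotated starts.

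The ventricular factor Irx4 had 3.61, 2.62 and 3.38, Irx6 had 2.59, 3.98 and 3.45 and Irx1 had 0.601, 0.627 and 1.2 scaled reads in the start-site window. Irx4 and Irx6 carried most of the family's start-site reads in undifferentiated cells, and their 3 libraries lay within 2-fold of each other. In the bodies 3 of 6 (3.66% of all bodies) were called higher, with 1.52, 1.56 and 7.1 scaled reads for Irx1, 2.18, 3.68 and 8.81 for Irx2 and 2.09, 3.87 and 7.06 for Irx3. The log2 ratios of treated over undifferentiated cells were 1.64, 1.46 and 1.31, and scaled to all mapped reads no Irx body stayed called.

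Irx4, at the other end, had 20.3, 20.0 and 20.0 scaled reads in the body, a log2 ratio of -0.06, and was the only one of the 38 genes whose scaled reads over the 3 regions together were not highest in treated cells, whereas scaled to all mapped reads 19 of the 38 were not. Irx6 had 2.85, 1.53 and 2.79 scaled body reads over 6 motifs. In the bodies the called and uncalled genes did not follow the clusters, since each cluster held both. In the start-site windows both called genes, Irx3 and Irx5, lay in the cluster on chromosome 8. In the flanks only Irx2 was called (6.3% of all flanks), with 1.68, 1.5 and 6.33 scaled reads at 6, 7 and 13 of 16 motifs.

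The Dlx genes encode Distal-less homeodomain factors and lie in convergent pairs, Dlx1 and Dlx2 on chromosome 2, Dlx3 and Dlx4 on chromosome 11, and Dlx5 and Dlx6 on chromosome 6. Of the 5 windows compared, 3 (26.1% of all windows) were called higher in treated over undifferentiated cells. Of these, Dlx2 was compared only through its reads in the treated table, as was the uncalled Dlx5. Scaled to all mapped reads, no Dlx window stayed called. Dlx4 had 1.93, 3.6 and 8.34 scaled reads at 3, 9 and 14 of 16 motifs, a log2 ratio of 1.33. Dlx3, a factor of skin and placenta, had 1.61, 1.28 and 4.89 scaled reads and a log2 ratio of 1.17. In Dlx4 the untreated library already stood between the others, and in Dlx3 it did not.

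Dlx2, a factor of forebrain interneurons, had 0, 19 and 72 reads, at least 3.15-fold higher in treated than in undifferentiated cells. Its neighbour Dlx1 had the most start-site reads of all 38 genes in undifferentiated cells, with 4.65, 2.76 and 6.91 scaled reads, and the log2 ratios were -0.70 in untreated and 0.53 in treated cells. Dlx5 and Dlx6, which act in the jaw and limb, had no listed site in undifferentiated or untreated windows and 25 and 11 reads in treated cells. Of the pair Dlx1 and Dlx2, 5 positions lay in regions of both genes.

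In the bodies 4 of 6 Dlx genes (3.66% of all bodies) were called higher in treated over undifferentiated cells. Dlx2 had 10, 58 and 146 reads at 2, 7 and 8 of 13 motifs, and its log2 ratio of 2.40 was the highest of all 38 bodies. Dlx5 had 31, 36 and 157 reads (1.81), Dlx6 76, 110 and 159 (1.25) and Dlx1 65, 68 and 166 (1.17). Both genes of the pairs on chromosomes 2 and 6 were called, and neither gene of the pair on chromosome 11, where Dlx3 had 6.52, 7.23 and 8.46 and Dlx4 2.34, 2.84 and 4.04 scaled reads.

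The flanks of the pair on chromosome 6 (6.3% of all flanks), which were compared only through their reads in the treated table, were also called. Dlx6 had no listed flank site in undifferentiated cells, 16 reads at 2 sites in untreated cells and 156 reads at 11 of 13 motifs in treated cells, at least 4.35-fold higher than in undifferentiated cells and the highest ratio of all 38 flanks. Dlx5 had 12, 15 and 40 reads. The Dlx2 flank, with 6.61, 3.98 and 14.4 scaled reads at 7, 10 and 26 of 34 motifs, was called higher over untreated cells only.

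The sine oculis genes Six2, Six3, Six4 and Six6 encode homeodomain factors of the eye, kidney, forebrain and muscle. In the start-site windows 2 of 3 compared (26.1% of all windows) were called higher in treated over undifferentiated cells. Of these, Six2 was compared only through its reads in the treated table. Scaled to all mapped reads, no sine oculis window stayed called. Six3, which is required for the forebrain and eye, had 5, 28 and 73 reads at 1, 4 and 8 of 17 motifs, a log2 ratio of 1.44. Six2, which keeps nephron progenitors, had 0, 17 and 72 reads at 0, 3 and 9 of 27 motifs, at least 2.45-fold higher. The eye factor Six6 had 2.18, 2.81 and 3.96 scaled reads and was not called (0.63).

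Six4, a factor of muscle, was the exception among the 38 genes, with 7 reads at 1 motif in undifferentiated cells, 10 reads at 1 motif in untreated cells and none of 18 motifs listed in treated cells. Its body had 8.0, 6.27 and 7.02 scaled reads and a log2 ratio of -0.22, and was not called, whereas 3 of the 4 sine oculis bodies were (3.66% of all bodies). The body of Six3 had 5.25, 10.4 and 24 scaled reads at 12, 16 and 33 of 50 motifs (1.60), with the untreated library between the others. Six2 had 5, 12 and 51 reads in its short body (1.88) and Six6 28, 35 and 56 (1.10). In the flanks only Six2 was called (6.3% of all flanks), with 11.4, 19.3 and 26.3 scaled reads, where the untreated value also lay above the undifferentiated one (0.73).

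The Pax genes encode paired-domain factors. In the start-site windows 6 of 7 (26.1% of all windows) were called higher in treated over undifferentiated cells, and in the bodies 0 of 7 (3.66% of all bodies), a share near that of genes at large. Of the called windows, those of Pax2, Pax3 and Pax7 were compared only through their reads in the treated table. Scaled to all mapped reads, only the Pax5, Pax7 and Pax9 windows stayed called. Pax7, which acts with Pax3 in neural crest and muscle, had 0, 10 and 100 reads at 0, 2 and 9 of 26 motifs, at least 3.41-fold higher in treated than in undifferentiated cells. Pax9, a factor of the thymus, teeth and vertebrae, had 1.08, 1.45 and 6.4 scaled reads, a log2 ratio of 1.71. In untreated cells neither window was called, with log2 ratios of 0.11 as a lower bound for Pax7 and 0.12 for Pax9.

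Pax2, required for kidney and midbrain, had 19, 12 and 124 reads at 3, 1 and 13 of 33 motifs, and Pax3 had 14, 7 and 72 at 2, 1 and 9 of 13. In these windows the untreated library was lowest and the treated library highest, with log2 ratios of 1.37 and 1.07 for treated over undifferentiated cells. The B-cell factor Pax5 had 0, 22 and 41 reads over 3 motifs, called higher in both day 7 libraries, at least 2.37-fold in untreated and at least 4.19-fold in treated cells. With windows of 3 kb the untreated ratio of Pax5 was -0.031 on the log2 scale.

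Pax8, a factor of thyroid and kidney, had 17, 48 and 44 reads over 4 motifs, with a log2 ratio of 0.73 in untreated and 1.24 in treated cells. Over its 3 regions together, 35, 38 and 36 of 45 motifs were listed, which made it the only one of the 38 genes whose listing share was not highest in treated cells. Pax1, a factor of the sclerotome and thymus, had 0.822, 0.873 and 2.13 scaled reads and was not called (0.68).

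The Pax bodies carried many reads in every library, from 7.21, 9.93 and 12.8 scaled reads in Pax1 to 182, 188 and 200 in Pax5, whose 246 body motifs were listed at 173, 184 and 189. Their log2 ratios of treated over undifferentiated cells lay between 0.07 (Pax3) and 0.65 (Pax1), all above 0, but scaled to all mapped reads all 7 lay below 0, between -0.62 (Pax3) and -0.043 (Pax1). In Pax7 the body had 95.8, 81.2 and 106 scaled reads while 95, 89 and 116 of 157 motifs were listed. In the flanks Pax3 (4.02, 3.16 and 9.04) and Pax8 (0.316, 0.60 and 1.24, 1 motif) were called higher over undifferentiated cells (6.3% of all flanks).

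**Figure D5:**
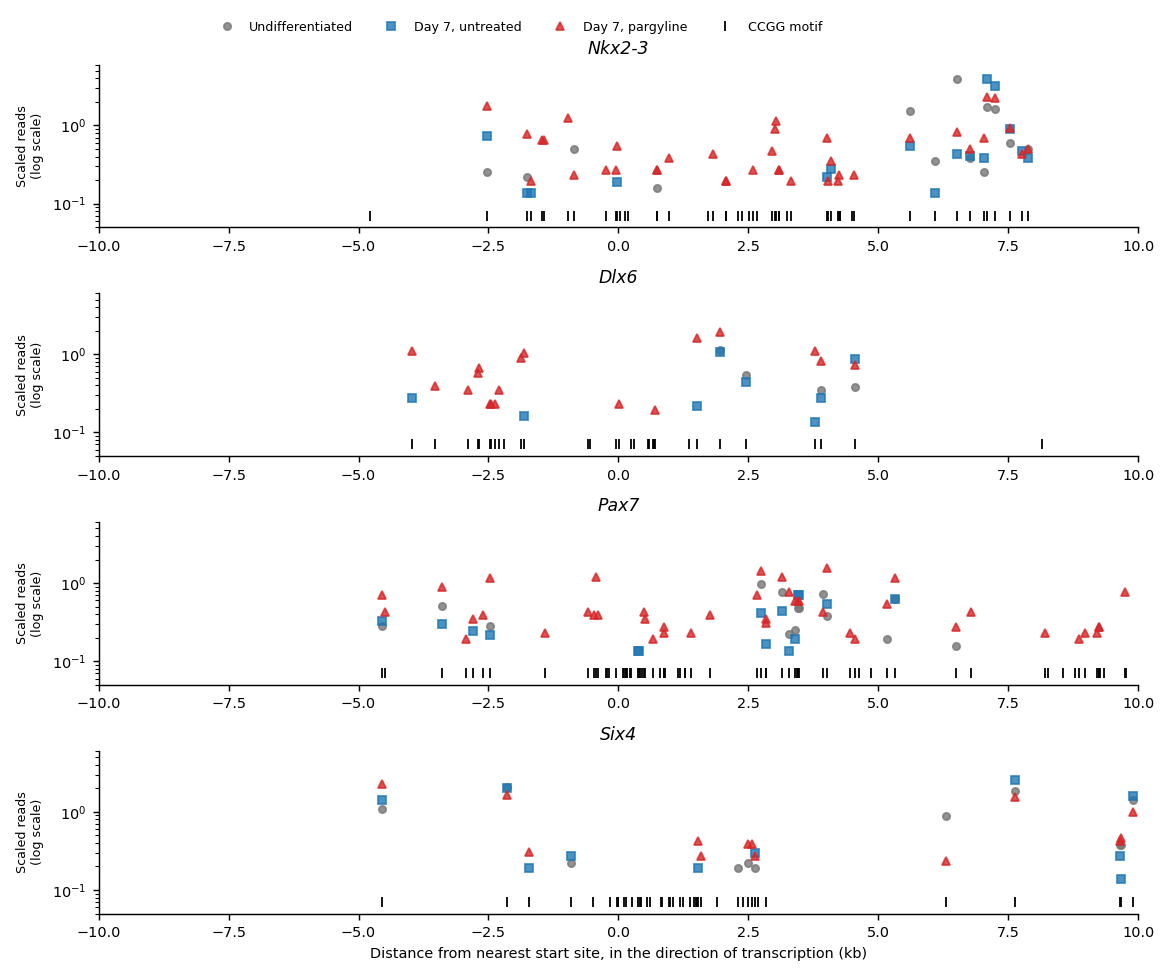
Scaled reads (y axis, reads per 1000000 CCGG reads, log scale) of each listed CCGG site within 10 kb of a start site of Nkx2-3, Dlx6, Pax7 and Six4 (x axis, distance from the nearest start in kb, in the direction of transcription), by library, with ticks for all CCGG motifs in the regions examined; the genes were chosen after their values were seen. Around the starts of Nkx2-3 and Pax7 most listed sites are in the treated library only, upstream of Dlx6 the treated library has 11 flank sites against 2 in untreated cells, and at Six4 no motif of the start-site window is listed in the treated library.

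Other genes of these families were described by counts only. Over the start-site windows of 14 relatives (Lmx1a, Lmx1b, Isl1, Isl2, Nkx1-1, Nkx1-2, Nkx2-4, Nkx2-6, Nkx2-9, Nkx6-3, Six5, Pax4, Pax6 and Mkx), 15.2%, 20.5% and 39.5% of 210 motifs were listed. Of the 12 windows compared, 8 were called higher (26.1% of all windows) and Pax4 alone lower (5.87%) in treated over undifferentiated cells. Isl1, Isl2, Nkx2-4 and Nkx2-9 were compared only through their reads in the treated table, and all but Nkx2-4 of these were called higher. In untreated over undifferentiated cells Nkx2-6 alone was called higher (11.5%) and Pax4 alone lower (7.35%). In the bodies, 3 of 12 (3.66% of all) were called higher in treated over undifferentiated cells, and in the flanks 2 of 13 (6.3% of all). The relatives had a median log2 ratio of 1.18 in start-site windows, near that of the 38 genes, and of 0.59 in bodies. Both start-site medians include windows compared only through the treated table.

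The start-site windows of 14 of the 38 genes held motifs inside another annotated gene, often an antisense transcript such as Dlx1as, Dlx6os1, Nkx2-2os or Six3os1. Reads at those motifs belong to both genes. With motifs inside other genes left out of the flanks, 36 flanks were compared, and 7 were called higher (9.37% of all) and 2 lower (8.15%) in treated over undifferentiated cells.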

How the data were processed

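Groups were taken from the sample titles, with 1 MethylRAD library each for undifferentiated, untreated and pargyline-treated E14Tg2A cells. The authors removed adapters and low-quality bases, selected reads holding an FspEI site, aligned these uniquely to GRCm38 (Bowtie2 2.3.3) and deposited for each site the count of reads, from 5 reads up. The authors also deposited an RPM value (the count divided by the mapped reads and multiplied by 1000000), which was used in 1 alternative only. The deposited tables also hold CCAGG and CCTGG sites, left out because, over the regions of these genes, the CCTGG totals were identical in all 3 tables and the CCAGG totals in those of undifferentiated and untreated cells. Here, CCGG counts were summed over the regions of GENCODE M21 protein-coding genes and scaled to the CCGG reads of each table (0.127, 0.109 and 0.155 scaled reads for 4 reads). Sums have exact Poisson 95% intervals, for counting error only, and shares have Wilson 95% intervals, which treat motifs as independent. The tables held 870344 to 892359 CCGG sites with a median of 23 to 30 reads. A region was compared from 20 reads in at least 1 table and called at 2-fold. All 38 genes are named by family, in bodies and flanks those called and the extremes; sequences were read from GRCm38. Some relatives of these genes are not reported here. Genes and lists were chosen with earlier results of these data known. The scripts were tested on simulated data (matplotlib 3.10.9, SciPy 1.17.1, pandas 2.3.3, numpy 2.4.6, Python 3.11.15). Alternatives varied cutoff, filter, scaling, window, fold, value for unlisted sites and transcript set. Whether a library pooled several cultures is not given in the sources used here.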

Additional observations from a re-analysis of the deposited data

Results flagged for a closer look

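In 4 start-site windows, the day 7 libraries stood on opposite sides of the undifferentiated library by at least 0.5 on the log2 scale. The difference between the treated and the untreated log2 ratio was 1.23 for Dlx1 (0.53 and -0.70), 1.79 for Nkx2-1 (1.13 and -0.65), 2.32 for Irx2 (0.94 and -1.38) and 2.25 for Nkx2-3 (1.30 and -0.95). Scaled to all mapped reads, the treated ratios were -0.17, 0.44, 0.24 and 0.60, so that Dlx1 lay below the undifferentiated level in both day 7 libraries and of the 4 only Nkx2-3 still passed 0.5 on both sides. The untreated ratio of Irx2 was 0.17 with windows of 3 kb and 0.35 with all annotated starts. With 1 library per group, these differences were not tested. The Nkx2-1, Irx2 and Nkx2-3 values rest on 15, 9 and 21 reads in undifferentiated cells.

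CCAGG sites lie outside the CCGG comparisons. In the regions of the 38 genes, the treated table listed 1254 CCAGG sites with 16261 reads, against 317 sites with 4493 reads in each of the other tables. CCTGG sites numbered 360, with 5243 reads, in all 3 tables. The sites of these genes made up 0.140% of all CCAGG sites of the treated table and 0.118% in the others.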

How the results depend on the processing

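No paired analysis was possible because there was 1 library per group. In treated cells more start-site windows and bodies were called higher than lower in every alternative. The treated table had the fewest CCGG reads, whereas the undifferentiated library had the fewest mapped reads. Scaling to all mapped reads also moved the median of all genes for treated over undifferentiated cells (bodies -0.72 against -0.03). The cause of the moves below was not tested.

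Counts are given as higher and lower genes for untreated over undifferentiated (U), treated over undifferentiated (T) and treated over untreated cells (V), each with the share of all regions of its kind in parentheses. Scaled to all mapped reads (deposited RPM), start-site windows gave 1 higher (5.59%) and 3 lower (13.1%) for U and 5 higher (7.15%) for T, bodies 1 lower (5.53%) for U and 6 higher (1.05%) for T, and flanks 4 lower (10.6%) for U, 2 higher (1.63%) and 3 lower (27.7%) for T, and 3 higher (1.19%) and 1 lower (4.28%) for V. At 1.5-fold, start-site windows gave 5 higher (25.7%) and 5 lower (15.7%) for U, bodies 4 higher (5.57%) and 1 lower (7.2%) for U and 22 higher (5.4%) for V, and flanks 3 higher (10.8%) and 5 lower (13.4%) for U, 14 higher (15.3%) and 1 lower (14.1%) for T, and 1 lower (5.01%) for V. With a cutoff of 10 reads, start-site windows gave 1 higher (7.84%) for U and 8 (16.9%) for T, bodies 1 lower (2.7%) for U and flanks 4 higher (5.56%) for T. That cutoff left listed shares of 6.48%, 8.43% and 19.0% in start-site windows, 38.8%, 40.7% and 53.7% in bodies and 38.2%, 42.3% and 54.6% in flanks. At nearly the same scaled cutoff (7, 8 and 5 reads), start-site windows gave 1 higher (10.4%) for U, 12 (17.2%) for T and 12 (9.1%) for V, and bodies 1 lower (2.7%) for U. The undifferentiated and untreated shares were then 8.43% and 11.5% in start-site windows, 44.9% and 45.6% in bodies and 47.0% and 46.6% in flanks. With unlisted sites set to 0 reads, U gave 10 higher (23.2%) and 4 lower (8.38%) start-site windows, 5 higher (2.42%) bodies, and 1 higher (4.42%) and 1 lower (5.97%) flank.

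By unscaled differences (over 30 reads higher or over 22 lower), start-site windows gave 8 higher (25.6%) and 2 lower (10.5%) for U, 25 higher (20.6%) and 1 lower (20.9%) for T and 22 higher (8.01%) and 1 lower (30.2%) for V. Bodies gave 23 higher (59.9%) and 4 lower (15.7%) for U, 25 higher (7.66%) and 7 lower (71.2%) for T and 19 higher (1.52%) and 14 lower (83.8%) for V, and flanks gave 14 higher (41.1%) and 8 lower (18.2%) for U, 13 higher (11.1%) and 14 lower (51.6%) for T and 12 higher (2.04%) and 16 lower (67.4%) for V. Windows of 3 kb gave 1 higher (5.0%) and 0 lower (5.76%) for U, with Pax5 at -0.031 and Irx2 at 0.17 on the log2 scale. Windows of 500 bp gave 0 lower (8.53%) for U. All annotated transcripts gave 1 higher (7.17%) for U, with Irx2 at 0.35 in U and Lhx8 at -0.21 in T. Scaling by the median ratio of sites gave 2 lower (8.72%) start-site windows and 1 lower (3.26%) body for U, and sites on reference CCGG motifs alone gave 1 lower (2.75%) body for U. Without motifs inside other genes, flanks gave 1 lower (8.2%) for U, 2 (8.15%) for T and 1 (1.65%) for V. With the filter applied to the undifferentiated and untreated tables only, chosen after seeing the data, start-site windows gave 0 lower (7.56%) for U, 13 higher (20.7%) for T and 11 higher (9.06%) for V. The other 175 counts and shares recomputed stayed within the limits for no change, and of the log2 ratios of single called regions 638 did, 168 moved and the 4 named above turned their sign. Among all regions compared, called or not, scaling to all mapped reads turned the sign of 7 start-site windows, 13 bodies and 19 flanks for T.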

Other observations

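Some CCGG sites of these genes had far fewer reads at day 7, although none of the regions that hold them was called in either direction. These sites were chosen after their values were seen, as those with the largest fall in scaled reads from undifferentiated cells to the higher of the day 7 libraries, and no explanation was tested. A site 6514 bp downstream of the Nkx2-3 start had 124, 16 and 21 reads, and an intronic Pax7 site 38208 bp from the start had 119, 36 and 19 reads. In Pax5, intronic sites had 91, 6 and 0, 148, 79 and 42, and 86, 10 and 10 reads, with the 0 marking a site not listed. A coding-exon site of Irx4 had 106, 29 and 14 reads, a site downstream of Lhx2 had 95, 16 and 13, and a site downstream of Nkx2-2 had 125, 66 and 36. All 8 sites lay in low-CpG windows and in bodies or flanks, and both day 7 libraries were below the undifferentiated one at each.

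At the other end of the range, the sites listed only in the treated table with the most reads were in an intron of Nkx2-2 (38 reads), in the start-site window of Dlx3 (36 reads), in introns of Lhx2 (33 and 28 reads), upstream of Nkx2-3 (32 reads) and in its untranslated region (29 reads), upstream of Pax7 (31 reads) and downstream of Dlx2 (30 reads). Such sites were thus spread over 4 families' start-site windows, bodies and flanks rather than over 1 gene. These, too, were chosen for their values.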
